A study of Mus musculus with 69 samples.

Results

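The 10 genes described here control how pyruvate enters the mitochondrion and the pyruvate dehydrogenase complex. They are the kinases Pdk1, Pdk2, Pdk3 and Pdk4, the phosphatases Pdp1 and Pdp2, the E1 subunits Pdha1 and Pdhb, and the pyruvate carrier subunits Mpc1 and Mpc2. They were chosen by name, and their Ensembl identifiers were looked up among the 56953 genes of the count tables. All 10 were found and all 10 passed the filter on low counts in each cell type, with 66 to 13664 counts per library. Pdk4 was the member that rose with the metabolic stressors, in both kinds of vascular smooth muscle cells and in endothelial cells. The other 9 members did not pass the test in any comparison of a stressor with its control.

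Glycolysis makes pyruvate in the cytosol, and the carrier formed by Mpc1 and Mpc2 moves it across the inner mitochondrial membrane. The pyruvate dehydrogenase complex then turns it into acetyl-CoA, a step that commits glucose carbon to oxidation. The kinases phosphorylate the E1 alpha subunit and switch the complex off, and the phosphatases switch it on again. Pdk4 is the kinase best known for its rise during fasting and fatty acid supply, when cells spare glucose.

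Bulk RNA sequencing was performed on cultured primary cells from male C57BL/6 mice. Vascular smooth muscle cells (VSMC) came from the thoracic and abdominal aorta of wild-type mice (WT VSMC) or of mice with a floxed Egfr gene and Cre recombinase driven by the SM22 promoter, which is active in smooth muscle (KO VSMC). Endothelial cells (EC) came from the heart and were selected with beads against CD31 after removal of CD45-positive cells, and their labels give the genotype as wild type, although 2 of the EC animals also gave KO VSMC and 2 also gave WT VSMC. Cultures were passaged and all solutions held bovine serum albumin. VSMC were kept in low-glucose medium without serum for 24 h beforehand, a step that the sources used here do not give for EC. The cells then had no stressor (Control) or received, for 24 h, 20 mM glucose and by the labels 100 µM free fatty acids (HG + FFA), 30 nM angiotensin II and 300 nM epinephrine (AII + NA), or all of these agents together (ALL). A set is the group of cultures from 1 animal at 1 passage that were treated at the same time. WT VSMC had 4 sets with every condition. KO VSMC had 4 sets, with 3 libraries for ALL because the ALL library of set 5 was not analysed here. EC had 10 sets from 9 animals, with 9 Control, 10 HG + FFA, 9 AII + NA and 10 ALL libraries.

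Total counts per library ran from 23626664 to 37801299 for WT VSMC, from 23238979 to 35120866 for KO VSMC and from 17166133 to 43240489 for EC. Levels are given as FPM, the CPM values of edgeR (the counts of a gene relative to the library total, on a common scale) with TMM factors over all 69 libraries. Egfr, the deleted gene, lay at 246 to 430 FPM as a mean per WT VSMC set and at 0.959 to 1.84 FPM in KO VSMC sets 6, 7 and 8, but at 36.5 FPM in KO VSMC set 5. In EC the set means of Egfr ran from 2.61 to 154 FPM and were lowest in sets 16 (2.61 FPM) and 15 (9.31 FPM), the 2 whose animals also gave KO VSMC. Among smooth muscle markers Acta2 was high in VSMC (222 to 2590 FPM over both genotypes) but also in EC (155 to 3708 FPM), whereas Tagln was 11.2 FPM or lower in every VSMC library. In the annotation, 66.7% of the exonic bases of Tagln are shared with genes on the opposite strand (Pcsk7 among them). How reads there were counted is not given in the sources used here, so this value is not read as a loss of Tagln. Myh11, with 0 exonic bases shared with other genes, was also low. It ran from 2.99 to 13.5 FPM in WT VSMC (median 6.40) and from 2.14 to 243 FPM in KO VSMC (median 4.77). In EC it ran from 0 to 12.7 FPM (median 2.95). The fibroblast marker Dcn ran from 776 to 2756 FPM in WT VSMC, from 65.8 to 998 FPM in KO VSMC and from 71.0 to 4262 FPM in EC. EC sets 9, 11 and 13 stood apart from their label, with set means of 18.1 to 42.4 FPM for Pecam1 and 8.73 to 41.7 FPM for Cdh5, against 260 to 1594 FPM and 111 to 903 FPM in the other sets. Sets 11 and 13 also had the highest EC means of Acta2 (3186 and 2825 FPM) and Dcn (3015 and 3751 FPM). The heart muscle genes Myh6, Actc1 and Nppa stayed below 1 FPM in every library, whereas Tnnt2 reached 299 FPM in EC. In bulk samples, fewer cells of a type and less RNA per cell cannot be told apart.

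The 250 bases before the outermost annotated start of the 4 kinase genes are printed to show how the promoter of Pdk4 differs in letters from those of the kinases that did not pass the test. They are from the mouse genome GRCm39 with GENCODE gene starts, 5′ to 3′ on the strand of the gene, and span chr2:71703238-71703487 (plus strand) for Pdk1, chr11:94932243-94932492 (minus strand) for Pdk2, chrX:92876390-92876639 (minus strand) for Pdk3 and chr6:5496340-5496589 (minus strand) for Pdk4. Capitals mark matches, on either strand, to any of the motifs searched, so that a match on the opposite strand stands as its reverse complement.
Pdk1: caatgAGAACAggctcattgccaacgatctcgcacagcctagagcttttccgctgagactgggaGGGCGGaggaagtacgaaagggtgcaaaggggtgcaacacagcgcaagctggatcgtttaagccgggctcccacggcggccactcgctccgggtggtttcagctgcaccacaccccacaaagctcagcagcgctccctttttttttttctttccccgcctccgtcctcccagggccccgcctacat
Pdk2: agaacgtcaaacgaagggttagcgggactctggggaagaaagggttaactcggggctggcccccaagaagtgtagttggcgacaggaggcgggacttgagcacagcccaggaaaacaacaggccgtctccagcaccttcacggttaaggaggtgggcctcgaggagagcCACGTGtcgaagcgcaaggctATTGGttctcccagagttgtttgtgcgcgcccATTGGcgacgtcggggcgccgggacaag
Pdk3: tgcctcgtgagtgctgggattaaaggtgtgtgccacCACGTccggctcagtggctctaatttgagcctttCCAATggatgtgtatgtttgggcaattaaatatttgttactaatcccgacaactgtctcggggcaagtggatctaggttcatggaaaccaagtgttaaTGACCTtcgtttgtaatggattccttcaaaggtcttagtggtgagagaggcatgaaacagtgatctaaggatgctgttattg
Pdk4: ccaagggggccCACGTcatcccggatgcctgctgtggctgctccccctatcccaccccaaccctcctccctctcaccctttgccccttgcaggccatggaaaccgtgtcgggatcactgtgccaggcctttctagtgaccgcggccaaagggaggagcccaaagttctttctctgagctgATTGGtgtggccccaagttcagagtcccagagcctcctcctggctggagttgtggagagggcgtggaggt

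The motifs searched on both strands were the nuclear receptor half-site AGGTCA and its direct repeat with 1 base between (DR1, the PPAR element), the FOXO core GTAAACA, the glucocorticoid receptor half-site AGAACA, the hypoxia response core ACGTG, the E-box CACGTG, the GC box GGGCGG, the CCAAT box and the TATA box TATAAA. The E-box holds the hypoxia response core within it, so a match to the former is also a match to the latter. The Pdk4 window held ACGTG at -239 and CCAAT at -70, both on the opposite strand, and no match to the other 7 motifs. ACGTG was found in 16.4% and CCAAT in 36.1% of 21770 gene promoters of the same length. The Pdk2 window held CACGTG at -81 (5.69% of promoters) and CCAAT at -60 and -28. The Pdk3 window held AGGTCA at -82 (13.9%), ACGTG at -214 and CCAAT at -180, and the Pdk1 window held GGGCGG at -186 (29.9%) and AGAACA at -245 (15.5%). DR1 was found in 0.0413%, GTAAACA in 2.97% and TATAAA in 12.5% of promoters, and in none of the 4 kinase windows. A match describes letters in this window only. In the annotation, 250 of the 250 bases of the Pdk2 window and 207 of those of the Pdk1 window lie in an exon of another gene on the opposite strand (Gm53644 and Gm75568).

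Pdk4 (ENSMUSG00000019577, chr6:5483097-5496339, minus strand, 11 exons) encodes the fasting-responsive kinase of the complex. In WT VSMC, its Control levels in sets 1, 2, 3 and 4 were 21.6, 41.1, 47.3 and 32.7 FPM, and its HG + FFA levels were 108, 94.9, 183 and 49.98 FPM. Every HG + FFA library lay above every Control library, with set 4 the lowest. The ratio to Control within a set was 5.00, 2.31, 3.87 and 1.53. The increase was 2.88-fold (log2FC 1.52, SE 0.23, n = 4 sets, FDR 0.00667, edgeR quasi-likelihood test). Without set 3 the estimate was 1.37 and no longer passed (FDR 0.157). With ALL the levels were 126, 97.5, 171 and 59.5 FPM, again all above Control, and the increase was 3.08-fold (log2FC 1.62, SE 0.23, FDR 0.00100).

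In KO VSMC, the Control levels of Pdk4 in sets 5, 6, 7 and 8 were 42.4, 57.2, 43.9 and 32.8 FPM, and the HG + FFA levels were 59.0, 214, 168 and 138 FPM. All HG + FFA libraries lay above all Control libraries, although set 5 reached only 1.39 times its Control against 3.74 to 4.19 times in sets 6, 7 and 8. Set 5 also differed from the other KO VSMC sets in Egfr (above) and in its summed fibroblast (5502 to 6296 FPM against 1252 to 2631 FPM) and leukocyte markers (128 to 151 FPM against 10.8 to 39.2 FPM). The WT VSMC sets had more Egfr than set 5, fibroblast sums of 3922 to 11331 FPM and ratios of 1.53 to 5.00. The part of Egfr and of these markers in the Pdk4 ratios was not tested in either genotype. The increase was 3.09-fold (log2FC 1.63, SE 0.19, n = 4 sets, FDR 0.00169, edgeR). With ALL the levels in sets 6, 7 and 8 were 212, 150 and 135 FPM and the increase was 3.35-fold (log2FC 1.74, SE 0.21, n = 3 sets, FDR 0.00271, edgeR). The ratios to Control within these sets were 3.71, 3.43 and 4.11, each above the fitted 3.35-fold. The fit also held the other libraries of set 5, which has no ALL library. Without set 6 or without set 7 the direction stayed but the test was no longer passed, with FDR 0.0773 and 0.115 for HG + FFA and 0.124 and 0.130 for ALL. Without set 5 the estimate was 1.96 for HG + FFA and 1.90 for ALL.

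In EC, the lowest, median and highest levels of Pdk4 were 49.996, 106 and 314 FPM in 9 Control libraries, 94.7, 254 and 429 FPM in 10 HG + FFA libraries, and 79.7, 251 and 393 FPM in 10 ALL libraries. The groups overlapped, and the sets differed widely in their Control level. Within a set, however, the HG + FFA library was higher than Control in 9 of 9 sets, by 1.37 times in set 14 to 4.498 times in set 13. Set 14 had the highest Control level (314 FPM) and the smallest ratio. The increase was 2.30-fold with HG + FFA (log2FC 1.20, SE 0.13, FDR 9.90e-08) and 2.15-fold with ALL (log2FC 1.11, SE 0.13, FDR 6.73e-07), with n = 9 sets and edgeR for both. Without sets 9, 11 and 13, which were low in endothelial markers, the estimates were 1.10 (FDR 3.92e-06) and 0.997 (FDR 2.15e-05).

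**Figure D1:**
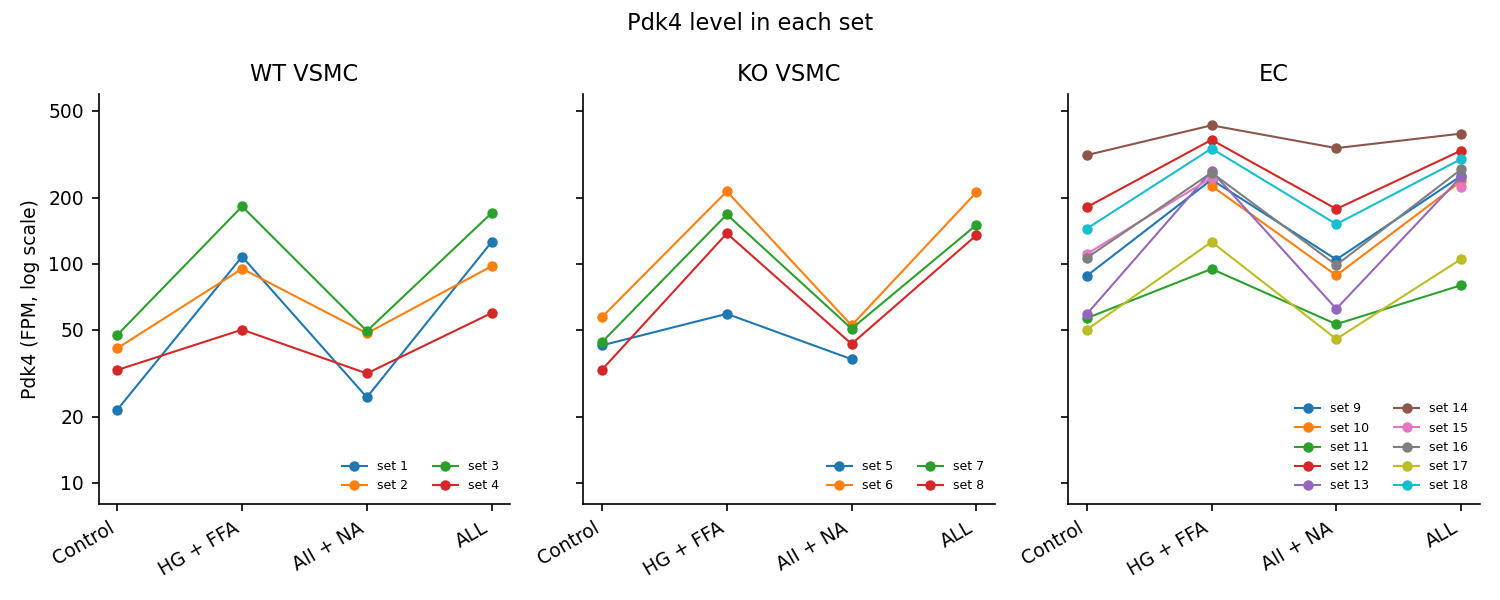
Pdk4 level in FPM on a log axis in each condition, with 1 line per set, for WT VSMC, KO VSMC and EC. Every line that has a Control library goes up from Control to HG + FFA, and the libraries with AII + NA alone lie near Control, as in WT VSMC set 1 with 21.6 and 24.5 FPM against 108 FPM with HG + FFA.

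Pdk4 was the 1 of 10 members that passed in each comparison of HG + FFA or ALL with Control. Of all genes tested with HG + FFA, edgeR called 0.538% for WT VSMC, 0.439% for KO VSMC and 3.53% for EC, and 7.45%, 0.399% and 3.18% with ALL. Pdk4 also met the study's stricter criteria in all 6 of these comparisons, namely FDR under 0.05 by both edgeR and DESeq2, an absolute log2FC above 0.64 and a level above 3 FPM. These criteria were met by 0.284%, 0.285% and 0.647% of genes with HG + FFA in WT VSMC, KO VSMC and EC, and by 2.18%, 0.314% and 0.641% with ALL. The 3 comparisons within a cell type share the Control libraries. Of the markers of other cell types, none of the smooth muscle, endothelial or fibroblast lists passed with HG + FFA in either kind of VSMC, whereas in EC 1 of 8 endothelial markers rose (Emcn) and 1 of 5 fibroblast markers fell (Col1a1). The summed level of the endothelial list in EC had a median of 1274 FPM in Control (318 to 5301), 2319 FPM with HG + FFA (349 to 6194) and 2182 FPM with ALL (407 to 6172). Within a set its ratio to Control was 0.686 to 1.28 with HG + FFA (median 1.15, higher in 6 of 9 sets) and 0.802 to 1.30 with ALL (median 1.13, higher in 5 of 9). The ratio of the summed fibroblast list in EC was 0.611 to 1.03 with HG + FFA (median 0.888, lower in 8 of 9 sets). With ALL it was 0.658 to 1.18 (median 0.908, lower in 8 of 9). The part of these 2 sums in the Pdk4 difference was not tested. With ALL in WT VSMC, Tagln and Tnnt2 rose and the endothelial markers Cdh5 and Emcn fell, and the part of these in the Pdk4 difference was not tested either.

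AII + NA did not move Pdk4 detectably. In WT VSMC its levels in sets 1 to 4 were 24.5, 48.1, 49.2 and 31.5 FPM, within 0.964 to 1.17 times Control (log2FC 0.10, 95% interval -0.39 to 0.59, n = 4 sets, FDR 0.930). In KO VSMC they were 36.6, 52.3, 50.5 and 42.99 FPM in sets 5 to 8 (log2FC 0.05, interval -0.36 to 0.45, n = 4 sets, FDR 0.936). In EC the lowest, median and highest were 45.3, 98.6 and 338 FPM, and the 95% interval of the log2FC was -0.25 to 0.25 (n = 8 sets with both libraries, FDR 1.0). In each cell type these libraries overlapped Control. No member passed with AII + NA by edgeR (0 of 10 in each cell type) or by DESeq2, and at an unadjusted p under 0.05 there was 1 member in WT VSMC (Pdp2) and 0 in the other cell types. Of all genes edgeR called 0.0532% for WT VSMC, 0% for KO VSMC and 0% for EC. In KO VSMC and EC, 1711 and 1143 genes had an unadjusted p under 0.05, and DESeq2 called 11 and 0.

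The level of Pdk4 with ALL did not differ detectably from that with HG + FFA. ALL differed from HG + FFA by a log2FC of 0.10 in WT VSMC (95% interval -0.38 to 0.57), 0.12 in KO VSMC (-0.31 to 0.55) and -0.10 in EC (-0.34 to 0.14). None passed, and neither did any other member (0 of 10 by edgeR and DESeq2 in each cell type, 1 of 10 in each at an unadjusted p under 0.05), with 0.0414%, 0% and 0% of all genes called by edgeR in WT VSMC, KO VSMC and EC. In the latter 2, 510 and 881 genes had an unadjusted p under 0.05 and DESeq2 called 0. In each of the 3 KO VSMC sets with both libraries, Pdk4 was lower with ALL than with HG + FFA (0.896 to 0.990 times). The fitted 0.12 in KO VSMC has the opposite sign. That fit also held set 5, which has no ALL library and only 1.39 times its Control with HG + FFA. Against AII + NA, in turn, ALL raised Pdk4 by 1.52 in WT VSMC (FDR 0.00442), 1.70 in KO VSMC (FDR 0.00244) and 1.11 in EC (FDR 5.19e-07) on the log2 scale by edgeR, and Pdk4 was again the only member called, beside 1.36%, 0.399% and 3.22% of all genes. DESeq2 called a second member in EC, Pdp1 by name, whose edgeR estimate was -0.31 (FDR 0.0738).

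Whether the stressors together did more or less than the sum of their separate effects was tested as well. On the log2 scale the ALL effect on Pdk4 minus the sum of the separate effects had a 95% interval of -0.69 to 0.68 in WT VSMC, -0.52 to 0.66 in KO VSMC and -0.45 to 0.26 in EC. No member passed this test by edgeR or DESeq2 (0 of 10 in each cell type, and 0, 1 and 0 at an unadjusted p under 0.05, the 1 being Pdp2 in KO VSMC), and edgeR called 0% of all genes in each cell type, with 290, 1155 and 1444 genes at an unadjusted p under 0.05 and 0 by DESeq2. Intervals of this width leave room for a sizeable departure in either direction.

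The effects on Pdk4 were set against each other between genotypes and cell types with interaction terms. The WT VSMC effect minus the KO VSMC effect was -0.10 with HG + FFA (95% interval -0.78 to 0.58), 0.06 with AII + NA (-0.61 to 0.74) and -0.12 with ALL (-0.83 to 0.59). The EC effect minus the WT VSMC effect was -0.32 with HG + FFA (-0.84 to 0.19), -0.10 with AII + NA (-0.62 to 0.42) and -0.50 with ALL (-1.02 to 0.01, unadjusted p = 0.0550, FDR 0.790 by edgeR). Without any filter on low counts, the last of these passed (FDR 0.0388). No other member passed in any of the 6 interactions by edgeR or DESeq2, with 0, 2 and 0 members at an unadjusted p under 0.05 between WT and KO VSMC (HG + FFA, AII + NA, ALL) and 0, 1 and 0 between EC and WT VSMC. Over all genes edgeR called 0%, 0% and 0.0109% between WT and KO VSMC and 0%, 0.0465% and 0.511% between EC and WT VSMC. Where it called 0%, the genes at an unadjusted p under 0.05 numbered 564 (HG + FFA) and 2182 (AII + NA) between WT and KO VSMC, with 0 called by DESeq2, and 397 (HG + FFA) between EC and WT VSMC, with 3 called by DESeq2. EC and VSMC carry different batch labels, so cell type and batch cannot be told apart, and 2 animals gave both WT VSMC and EC.

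**Figure D2:**
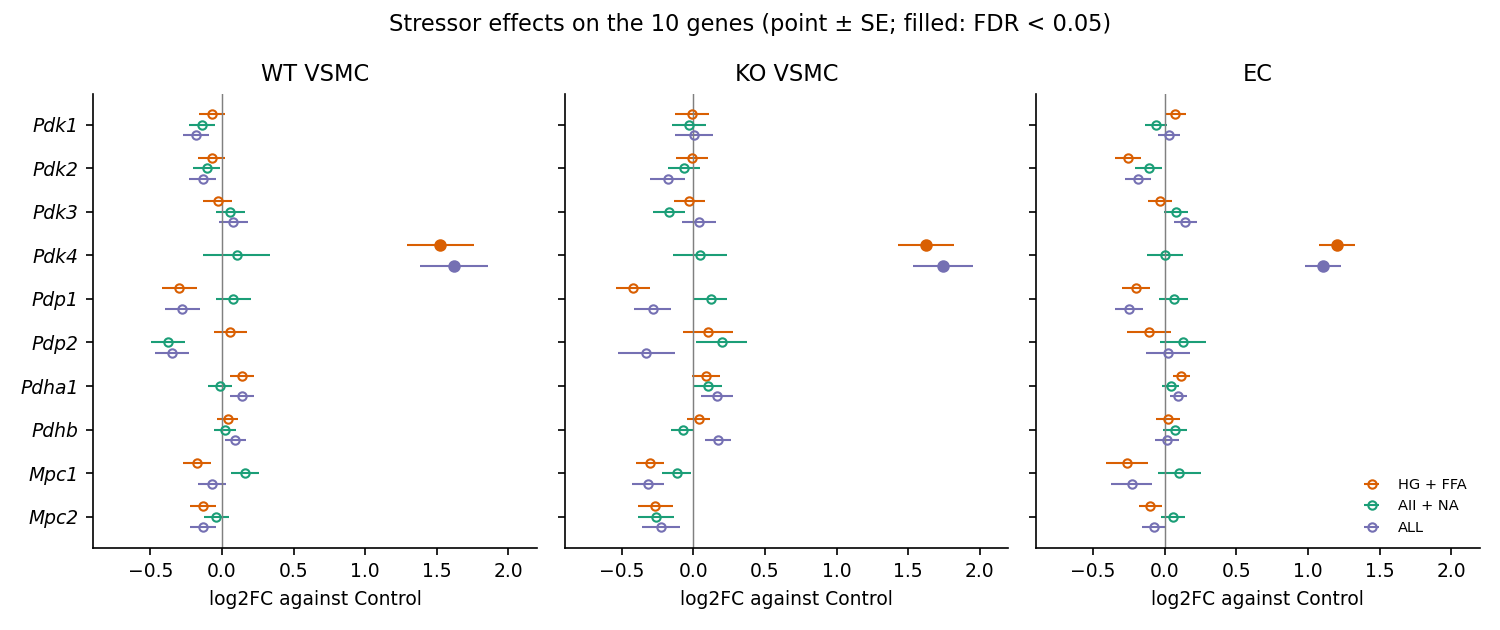
Log2FC of each of the 10 members against Control (points, filled where the FDR is under 0.05, with SE as bars) for HG + FFA, AII + NA and ALL in WT VSMC, KO VSMC and EC. Pdk4 lies at 1.11 to 1.74 with HG + FFA and ALL and near 0 with AII + NA, and the other 9 members lie between -0.42 and 0.20.

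The other 3 kinases did not pass in any comparison of a stressor with Control. Pdk1, which is a classical target of the hypoxia-inducible factor, had Control levels of 23.7 to 40.1 FPM in WT VSMC, 37.8 to 46.9 FPM in KO VSMC and 41.4 to 59.5 FPM in EC. Its log2FC with HG + FFA was -0.07, -0.01 and 0.07 (SE 0.09, 0.12 and 0.08, FDR 0.842, 0.986 and 0.678 by edgeR) in WT VSMC, KO VSMC and EC. Pdk3, on the X chromosome, differed by -0.03 in each cell type with HG + FFA (SE 0.10, 0.11 and 0.08, FDR 0.951, 0.932 and 0.904 by edgeR).

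Pdk2, the most widely expressed kinase of the family, leaned to lower levels in EC. Its lowest, median and highest levels there were 24.2, 40.1 and 67.2 FPM in Control and 20.1, 32.8 and 51.0 FPM with HG + FFA, and the groups overlapped. It was lower with HG + FFA in 8 of 9 sets, the exception being set 16, the EC set with the least Egfr (2.61 FPM), with 1.30 times Control. The log2FC was -0.26 (SE 0.09, n = 9 sets, FDR 0.117 by edgeR), and without set 16 it was -0.33 and passed (FDR 0.0291). In VSMC its log2FC with HG + FFA was -0.07 in WT and -0.01 in KO (SE 0.09 and 0.11, FDR 0.836 and 0.982). Of the exonic bases of Pdk2, 33.9% are shared with genes on the other strand (Samd14 among them), and the counting's strand setting is not given in the sources used here, so their reads cannot be told apart.

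The make-up of the kinase transcripts was described as the share of each kinase in their summed level. For this, levels were divided by the length of each gene's merged exons, in FPM per kb. In Control, Pdk4 made up 42.2% ± 7.31 (SD, n = 4) of the summed level of the 4 kinases in WT VSMC, 47.5% ± 5.77 (n = 4) in KO VSMC and 66.3% ± 13.7 (n = 9) in EC. With HG + FFA the shares were 67.8% ± 10.1 (n = 4), 72.1% ± 12.9 (n = 4) and 81.9% ± 8.92 (n = 10), and with ALL 70.2% ± 7.27 (n = 4), 78.3% ± 3.73 (n = 3) and 80.2% ± 10.5 (n = 10). With AII + NA they were 45.4%, 49.6% and 66.4%. The summed level itself was 21.8 ± 3.51 FPM per kb in WT VSMC Control and 40.7 ± 15.6 with HG + FFA (n = 4 each), 24.3 ± 3.21 and 50.7 ± 16.5 in KO VSMC (n = 4 each), and 45.8 ± 22.5 (n = 9) and 81.3 ± 25.8 (n = 10) in EC.

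The shares depend on the length used. With the length of the canonical transcript, which for Pdk2 leaves out much exonic sequence, Pdk4 made up 19.6% ± 4.35, 24.1% ± 4.48 and 44.1% ± 14.8 of the kinases in Control of WT VSMC, KO VSMC and EC, and 42.1% ± 11.7, 49.2% ± 14.7 and 64.7% ± 12.5 with HG + FFA. On that scale Pdk2 was the largest in VSMC Control, with 48.8% ± 4.22 in WT and 43.7% ± 4.92 in KO, and Pdk4 was the largest in EC. With both lengths the mean share of Pdk4 was higher with HG + FFA and with ALL than in Control in each cell type.

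**Figure D3:**
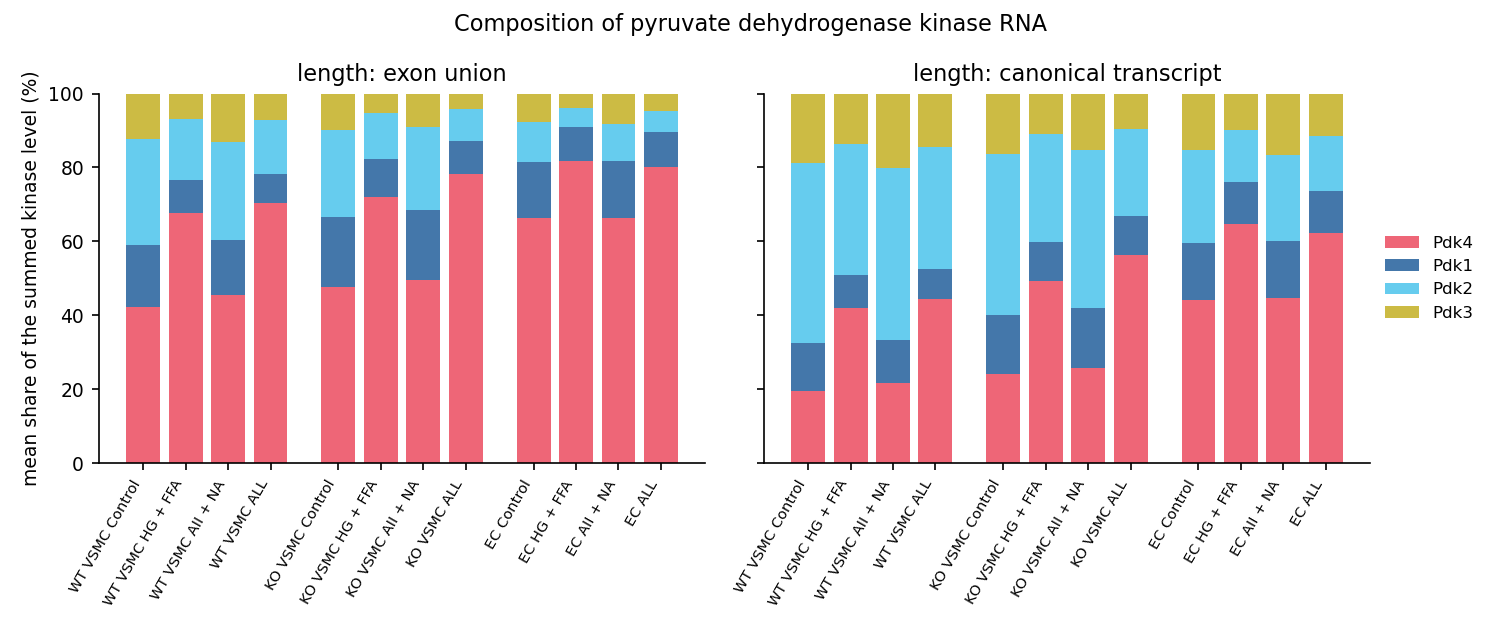
Mean share of each kinase in the summed level of the 4 kinases (percent of FPM per kb), as stacked bars for each condition in WT VSMC, KO VSMC and EC, with the length of the merged exons on the left and of the canonical transcript on the right. On the left Pdk4 fills 42.2% of the WT VSMC Control bar and 67.8% of the HG + FFA bar, and 66.3% and 81.9% in EC.

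Pdp1 encodes the calcium-stimulated phosphatase that reactivates the complex, the opposite of what the kinases do. Its Control levels in WT VSMC sets 1 to 4 were 51.8, 46.8, 50.7 and 58.8 FPM, and with HG + FFA they were 37.6, 38.9, 44.0 and 50.1 FPM. In KO VSMC sets 5 to 8 they were 33.2, 18.4, 15.3 and 22.2 FPM in Control and 25.9, 14.2, 11.7 and 14.8 FPM with HG + FFA. Each HG + FFA library was lower than its own Control in 4 of 4 sets of each genotype, although the groups overlapped. In EC the lowest, median and highest were 17.2, 21.8 and 39.6 FPM in Control and 13.9, 19.9 and 30.7 FPM with HG + FFA, lower in 8 of 9 sets. The log2FC was -0.30 in WT VSMC (SE 0.12, n = 4 sets, FDR 0.358), -0.42 in KO VSMC (SE 0.12, n = 4 sets, FDR 0.177) and -0.20 in EC (SE 0.10, n = 9 sets, FDR 0.280), so that it did not pass over all genes by edgeR. DESeq2 called it in KO VSMC (log2FC -0.43, FDR 0.0383).

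Pdp2, the less abundant phosphatase, differed most with the humoral stressors in WT VSMC. Its levels in sets 1 to 4 were 5.58, 5.93, 6.34 and 6.65 FPM in Control, 4.17, 4.33, 5.21 and 5.10 FPM with AII + NA, and 4.25, 4.84, 5.62 and 4.51 FPM with ALL. The AII + NA libraries all lay below all Control libraries, and the ALL libraries overlapped Control by set 3 alone. The log2FC was -0.38 with AII + NA (SE 0.12, n = 4 sets, FDR 0.266) and -0.35 with ALL (SE 0.12, n = 4 sets, FDR 0.0815), and neither passed by edgeR. In KO VSMC the log2FC was 0.20 with AII + NA (SE 0.18, n = 4 sets, FDR 0.644 by edgeR) and -0.33 with ALL (SE 0.20, n = 3 sets, FDR 0.577), lower in 3 of 3 sets. The WT VSMC effect minus the KO VSMC effect was -0.56 with AII + NA (95% interval -0.98 to -0.14, unadjusted p = 0.0104 by edgeR, FDR 0.395) and -0.02 with ALL (-0.47 to 0.43, FDR 0.991).

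The E1 subunits, which carry out the decarboxylation of pyruvate, did not pass in any comparison of a stressor with Control. Pdha1, the alpha subunit that the kinases phosphorylate, had mean Control levels of 144 ± 19.5 FPM in WT VSMC (n = 4), 116 ± 21.7 FPM in KO VSMC (n = 4) and 130 ± 24.0 FPM in EC (n = 9). With HG + FFA its log2FC was 0.14, 0.09 and 0.12 (SE 0.08, 0.10 and 0.06, FDR 0.594, 0.714 and 0.294 by edgeR). Pdhb, the beta subunit, differed by 0.04, 0.04 and 0.02 (SE 0.08 in each, FDR 0.901, 0.868 and 0.934). Of the exonic bases, 13.4% of Pdha1 and 27.8% of Pdhb are shared with genes on the opposite strand.

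The pyruvate carrier genes leaned lower with HG + FFA without passing. Mpc1 in KO VSMC sets 5 to 8 had 18.1, 26.0, 28.6 and 18.6 FPM in Control and 17.4, 22.7, 20.3 and 13.4 FPM with HG + FFA. It was lower in 4 of 4 sets, by the least in set 5, and the groups overlapped. The log2FC was -0.30 (SE 0.10, n = 4 sets, FDR 0.277 by edgeR) in KO VSMC, -0.18 (SE 0.10, n = 4 sets, FDR 0.538) in WT VSMC and -0.26 (SE 0.15, n = 9 sets, FDR 0.373) in EC, where 8 of 9 sets were lower. Mpc2 differed by -0.13, -0.26 and -0.10 in WT VSMC, KO VSMC and EC (SE 0.09, 0.12 and 0.08, FDR 0.632, 0.399 and 0.579). Of the exonic bases, 35.5% of Mpc1 and 12.3% of Mpc2 are shared with genes on the opposite strand. Without KO VSMC set 5, Mpc1 (-0.39, FDR 0.0452) and Mpc2 (-0.44, FDR 0.0349) passed in KO VSMC by edgeR.

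Without stressors, EC differed from WT VSMC in 4 of the 10 members, and EC were not tested against KO VSMC. EC against WT VSMC Control was higher for Pdk4 (log2FC 1.81, SE 0.44, FDR 0.0143) and Pdk1 (0.72, SE 0.15, FDR 0.00633), and lower for Pdp1 (-1.10, SE 0.21, FDR 0.00398) and Mpc2 (-0.79, SE 0.21, FDR 0.0217), by edgeR with n = 9 EC and 4 WT VSMC libraries. This unpaired fit treats the libraries as independent, although EC sets 17 and 18 came from 1 animal and EC set 9 shared its animal with WT VSMC set 1. Without EC set 18, the same 4 members passed. The former 2 are kinases that switch the complex off, and Pdp1 is a phosphatase that switches it on. The other kinases, Pdk2 and Pdk3, and the other phosphatase, Pdp2, did not pass. These are RNA levels, and the activity of the complex was not measured here. Pdhb was 0.37 higher (SE 0.14, FDR 0.0866). Over all genes 15% were called in this comparison. The EC libraries ran from 49.996 to 314 FPM for Pdk4 and the WT VSMC libraries from 21.6 to 47.3 FPM, without overlap, and for Pdp1 from 17.2 to 39.6 FPM and from 46.8 to 58.8 FPM, also without overlap. The KO VSMC Control libraries overlapped EC for both genes, at 32.8 to 57.2 FPM for Pdk4 and 15.3 to 33.2 FPM for Pdp1. Without WT VSMC set 1, Pdk4 and Mpc2 no longer passed (FDR 0.0579 for Pdk4), and Mpc2 was also lost without set 2 or without set 3 (FDR 0.0549 to 0.0732 over the 3). Without EC sets 9, 11 and 13, the log2FC of Pdk4 was 2.11 and Pdhb passed as well (0.41, FDR 0.0269).

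Within EC the Control level of Pdk4 was highest in sets 14, 12 and 18 (314, 181 and 145 FPM), whose mean Pecam1 levels were 1594, 1095 and 1111.25 FPM. It was lowest in sets 17, 11 and 13 (49.996, 56.4 and 58.9 FPM), whose Pecam1 means were 263, 42.4 and 18.1 FPM. The order was not that of Pecam1 throughout. Set 9 had less Pecam1 than set 17 (25.7 against 263 FPM) but more Pdk4 (88.1 against 49.996 FPM). Sets 15 and 16 lay between, at 111 and 106 FPM of Pdk4 beside 935 and 260 FPM of Pecam1. The part of the endothelial share of the cultures in the Pdk4 level was not tested.

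Between the genotypes, no member passed in Control by edgeR (0 of 10, 0% of all genes called). Egfr, the deleted gene, was not called by this test either, with mean Control levels of 382 FPM in WT VSMC and 10.8 FPM in KO VSMC. The lack of a call here therefore does not show that a level was equal in the genotypes. At an unadjusted p under 0.05 there was 1 member, Pdp1, and over all genes 993, with 32 genes called by DESeq2. Pdp1 lay at 46.8 to 58.8 FPM in WT VSMC and 15.3 to 33.2 FPM in KO VSMC, without overlap (log2FC -1.23, SE 0.26, n = 4 each, FDR 0.303 by edgeR, FDR 0.0157 by DESeq2). The summed fibroblast markers also differed in Control, with a median of 6657 FPM in WT VSMC (4780 to 11331) against 2189 FPM in KO VSMC (1470 to 6296), and their part in the Pdp1 difference was not tested. Pdk4 was 0.30 higher in KO VSMC, with a 95% interval of -0.70 to 1.30. The animals of the 2 genotypes were cultured as separate sets, so that culture and genotype cannot be told apart.

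**Figure D4:**
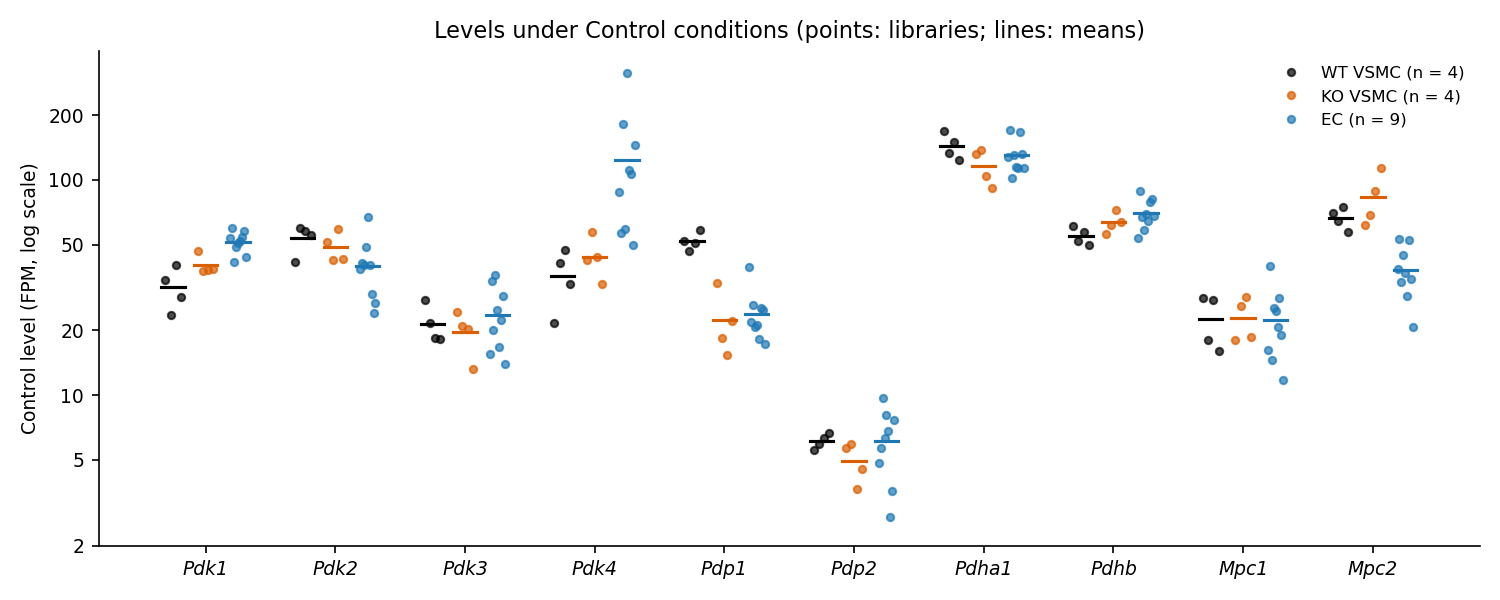
Control level of each member in FPM (log axis), with 1 point per library and a line at the mean for WT VSMC (n = 4), KO VSMC (n = 4) and EC (n = 9). Every Pdk4 point of EC (49.996 FPM or higher) lies above those of WT VSMC (47.3 FPM or lower), and every Pdp1 point of EC and KO VSMC (39.6 FPM or lower) lies below those of WT VSMC (46.8 FPM or higher). Levels in FPM are not compared between genes.

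Per kb of merged exons, Pdha1 had the highest Control level of the 10 members in WT VSMC (26.9 ± 3.65 FPM per kb, n = 4) and KO VSMC (21.8 ± 4.07, n = 4). In EC Pdk4 came first (32.5 ± 22.0, n = 9) and Pdha1 followed (24.3 ± 4.49), a difference within their spread. Pdhb followed in both kinds of VSMC, with 11.2 ± 1.05 FPM per kb in WT and 12.96 ± 1.405 in KO. Pdp2 was lowest in all 3 cell types (1.05 ± 0.0802, 0.851 ± 0.179 and 1.06 ± 0.382), and Pdk3 stood just above it at 2.61 ± 0.530, 2.40 ± 0.567 and 2.87 ± 0.9748. Apart from Pdp2, which stayed lowest, the order changed with the length used. Per kb of canonical transcript, Pdha1 was first in WT VSMC with Mpc2 second, Mpc2 was first in KO VSMC ahead of Pdhb and Pdha1, and Pdhb was first in EC ahead of Pdha1 and Pdk4. The member just above Pdp2 was then Pdk1 in WT VSMC (6.02 ± 1.35) and Pdp1 in KO VSMC (4.77 ± 1.67) and EC (5.11 ± 1.42).

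The genes around the complex were grouped in lists by their known function. Of the rest of the complex (Dlat, Dld, Pdhx and Pdpr tested, with the testis form Pdha2 below the filter), 0 of 4 passed in any comparison of a stressor with Control, and of 7 cofactor genes for thiamine and lipoate 0 of 7 did. Of 11 genes for other routes of pyruvate, 1 rose with ALL in WT VSMC (Cs, citrate synthase, log2FC 0.30, SE 0.06, FDR 0.00898 by edgeR) and 1 with ALL in EC (Me1, malic enzyme, 0.30, SE 0.06, FDR 0.00302). Over all genes 7.45% and 3.18% were called in these comparisons, and nothing is read from these counts. Ldha and the other genes of that list did not pass. The median log2FC of the list with HG + FFA was 0.0032, -0.032 and 0.10 in WT VSMC, KO VSMC and EC, beside -0.0058, 0.0035 and -0.0034 over all genes.

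Several target genes of the peroxisome proliferator-activated receptors (PPAR), the fatty acid sensors that are known to drive Pdk4, rose with HG + FFA in KO VSMC and EC and with ALL in all 3 cell types. Of 11 tested, 0 passed with HG + FFA in WT VSMC by edgeR (7 at an unadjusted p under 0.05, 4 by DESeq2), 5 rose in KO VSMC and 8 rose in EC, beside 0.538%, 0.439% and 3.53% of all genes called in either direction. With ALL, 4 rose in WT VSMC, 8 in EC and 5 in KO VSMC, beside 7.45%, 3.18% and 0.399% of all genes in that order, and 0 fell in any of these comparisons. Their median log2FC with HG + FFA was 0.37, 0.47 and 0.56 in WT VSMC, KO VSMC and EC, beside -0.0058, 0.0035 and -0.0034 over all genes. Angptl4, a secreted inhibitor of lipoprotein lipase, rose with HG + FFA in KO VSMC (2.13, SE 0.36, FDR 0.0151 by edgeR) and EC (3.22, SE 0.31, FDR 2.25e-08) and stood at 1.32 in WT VSMC (FDR 0.0574). Cpt1a, which admits fatty acids to the mitochondrion, rose in KO VSMC (1.04, FDR 0.0121) and EC (0.80, FDR 4.92e-09) and stood at 0.49 in WT VSMC (FDR 0.133). Plin2, Slc25a20 and Fabp4 also rose with HG + FFA in KO VSMC and EC, and Acaa2, Etfdh and Cd36 in EC. The adipocyte markers summed to at most 1.29 FPM in any library.

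The branched-chain ketoacid dehydrogenase is a sister complex whose kinase, Bckdk, belongs to the same family as the Pdk kinases. Of its 5 genes, Bckdhb, the E1 beta subunit, fell with HG + FFA in KO VSMC (log2FC -0.54, SE 0.11, FDR 0.0422) and EC (-0.54, SE 0.12, FDR 0.00508) and stood at -0.37 in WT VSMC (SE 0.11, FDR 0.162). With ALL it fell in all 3 cell types (-0.44, -0.66 and -0.57, FDR 0.0205, 0.0258 and 0.00346 by edgeR). Ppm1k, the phosphatase of that complex, fell in EC with HG + FFA (-0.38, SE 0.10, FDR 0.0317) and with ALL (-0.42, SE 0.10, FDR 0.0158). Bckdk, Bckdha and Dbt did not pass.

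Target genes of other known regulators of the kinases were listed as well. By edgeR, those of the hypoxia-inducible factor passed in both directions, whereas those of FOXO factors or glucocorticoids that passed all fell. Of 10 genes that respond to the hypoxia-inducible factor, 1 passed with HG + FFA in WT VSMC, 0 in KO VSMC (3 at an unadjusted p under 0.05, 1 by DESeq2) and 2 in EC. Ndrg1 fell in WT VSMC (-0.45, SE 0.09, FDR 0.0241) and EC (-0.57, SE 0.08, FDR 5.40e-05), whereas Adm rose in EC (0.46, SE 0.10, FDR 0.00535) by edgeR. With ALL, 2 passed in WT VSMC, 0 in KO VSMC by edgeR (4 at an unadjusted p under 0.05, 1 by DESeq2) and 3 in EC. Ndrg1 fell and Pfkfb3, which makes an activator of glycolysis, rose in WT VSMC (0.86, SE 0.19, FDR 0.0123), and in EC Ndrg1 fell while Adm and Pgk1 (0.33, SE 0.09, FDR 0.0294) rose. Of 9 genes that respond to FOXO factors or glucocorticoids, 0 rose in any comparison with Control by edgeR. Klf15, a glucocorticoid-responsive transcription factor, fell with HG + FFA in KO VSMC (-0.56, SE 0.10, FDR 0.0151) and EC (-0.76, SE 0.13, FDR 0.000472) and with ALL in all 3 cell types. Tsc22d3 fell with HG + FFA in EC (-0.34, SE 0.08, FDR 0.00724) and Sesn1 with ALL in WT VSMC (-0.32, SE 0.08, FDR 0.0233). The shares of all genes called in these comparisons are those given for the PPAR targets. With AII + NA, no gene of any of these lists passed by edgeR. The lists were chosen with earlier results of these data known. The part of PPAR, the hypoxia-inducible factor, FOXO factors or glucocorticoids in the Pdk4 rise was not tested.

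**Figure D5:**
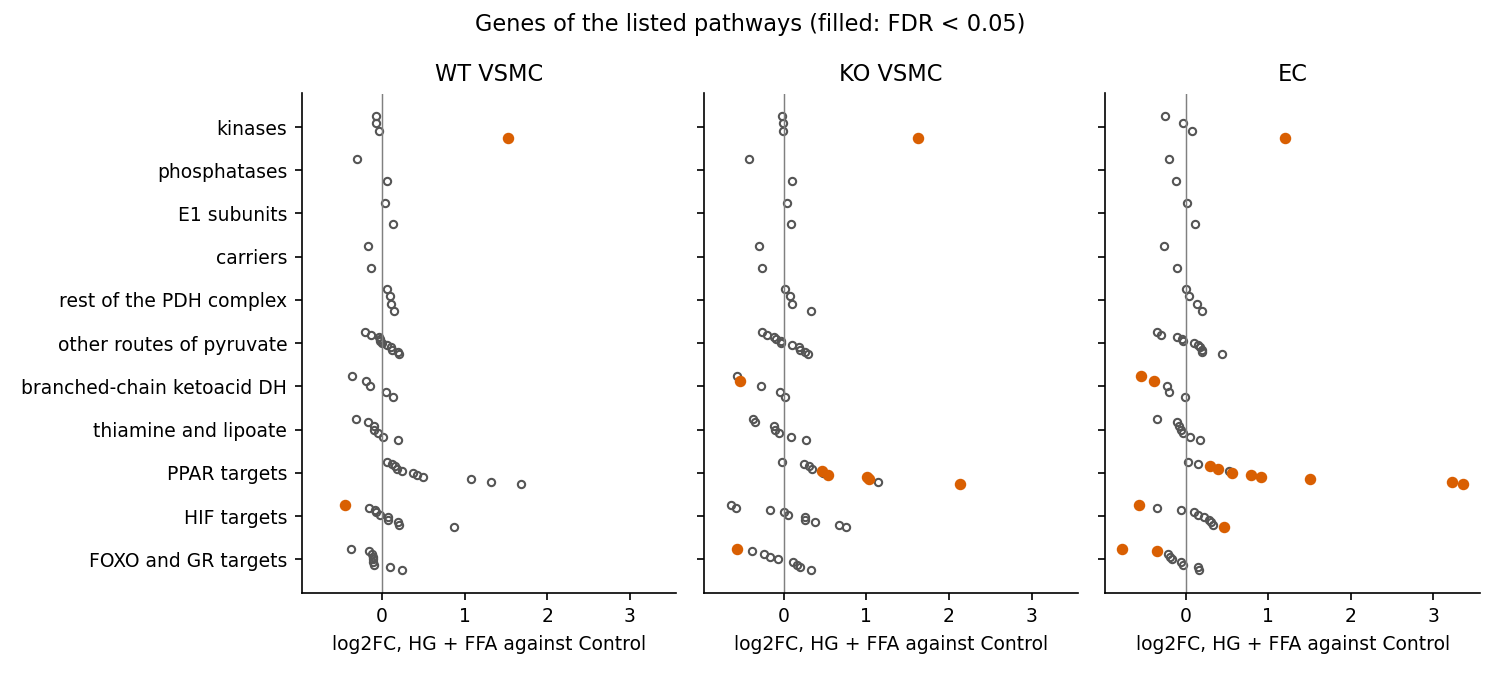
Log2FC against Control of every tested gene of each list (points, filled where the FDR is under 0.05) with HG + FFA in WT VSMC, KO VSMC and EC, with the 10 members in the top 4 lines. The PPAR target genes lie mostly to the right of 0, with medians of 0.37, 0.47 and 0.56, and no gene of the rest of the complex passed.

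Genes whose ratio to Control followed that of Pdk4 most closely were sought over 49 ratios (12 of WT VSMC, 11 of KO VSMC and 26 of EC, over all stressors) among 11441 genes with a mean level of at least 3 FPM. They were Klhl13 (Pearson r = 0.85), Slc22a5 (0.81), Cpt1a (0.79), Slc43a3 (0.77) and Fads1 (0.76). Slc22a5 encodes the carnitine transporter, Cpt1a the carnitine palmitoyltransferase of the outer mitochondrial membrane, and Fads1 a fatty acid desaturase. Within EC alone the r was 0.81, 0.70, 0.71, 0.76 and 0.60 in the same order. These ratios share Control libraries and sets, and they fall into groups with and without HG + FFA, so the values are a description. Among the members, r with Pdk4 ran from -0.51 for Pdp1 to 0.40 for Pdha1.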

How the data were processed

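Bulk RNA sequencing gave 1 library per culture. Per the labels and the study's methods, HISAT2 2.1.0 was used with mm39 as reference. The authors counted reads over exons with featureCounts, including reads with several matches, and they deposited raw counts per Ensembl gene. Counts with several matches can add reads to genes with near copies, and the strand setting is not given in the sources used here. The whole count tables were fitted with edgeR 4.0.16 in R 4.3.3 (TMM, filterByExpr, quasi-likelihood test, Benjamini-Hochberg FDR, threshold 0.05), with set and condition as terms in each cell type and interaction terms between cell types. DESeq2 1.42.0 served as an alternative, beside other scaling, filters, sets and lengths. Same-set libraries deviated together (mean r 0.781, 0.762 and 0.813 in WT VSMC, KO VSMC and EC over 14192 genes, with a lowest value of 0.516), and sets are cultures of the same animal, so the set was kept in the model. FPM were taken after TMM scaling over all 69 libraries, and 95% intervals used the t quantile of edgeR's degrees of freedom. For likeness to Pdk4, log2 ratios used a pseudocount of 0.1 FPM, and the 5 genes with the highest r were named. Between libraries of the same cell type and condition, the smallest chi-square per gene was 45.9, so none of these was a repeat of another. Libraries of different groups were not compared in this way. Of the 56953 gene identifiers, 56310 were found in the GENCODE annotation of GRCm39. Scripts were tested on simulated data. Named genes were all 10 members, list genes past the test with HG + FFA or ALL and their values elsewhere, and the 5 genes most like Pdk4. The members and lists were chosen with earlier results of these data known. The labels name epinephrine, whereas the study's methods name norepinephrine, and the labels are followed here. For the free fatty acids the labels give 100 µM, which the study's methods give for oleate and for palmitate each. The values of 1 list gene are not reported here, and it is left out of the counts and medians of its list.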

Additional observations from a re-analysis of the deposited data

Results flagged for a closer look

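Each group of 4 to 10 libraries or ratios was searched for a member value whose gap to its nearest neighbour exceeded Dixon's 95% limit. Of 190 groups, 14 held such a value, and chance flags about 1 in 20 groups. For Pdk4, KO VSMC set 5 had a ratio of 1.39 with HG + FFA, far below the other 3 sets, and it was also the KO VSMC set with the highest mean Egfr (36.5 FPM), fibroblast marker sum (5919 FPM) and leukocyte marker sum (141 FPM), whose part in it was not tested. EC set 14 lay far above the other sets for Pdk4 in Control (314 FPM) and with AII + NA (338 FPM), and for Pdk2 with AII + NA (69.2 FPM). Among the other kinases, Pdk1 stood at 46.9 FPM in KO VSMC Control of set 5, Pdk3 at 28.0 FPM in WT VSMC set 1 with HG + FFA, the Pdk3 ratio at 0.707 in KO VSMC set 8 with AII + NA, and the Pdk2 ratio at 1.30 in EC set 16 with HG + FFA. Pdp1 stood at 39.6 FPM in Control and 58.9 FPM with AII + NA in EC set 9, a set low in endothelial markers, and its ratio was 0.668 in KO VSMC set 8 with HG + FFA. In EC the ratio was 1.33 for Pdha1 in set 13 and 1.86 for Pdhb in set 9 with AII + NA, and 0.433 for Mpc1 in set 18 with ALL.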

How the results depend on the processing

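The direction of the called Pdk4 differences held under every alternative run, and none was reversed. Leaving out 1 set at a time, the log2FC of Pdk4 ran from 1.27 to 1.83 (WT VSMC, HG + FFA), 1.32 to 1.89 (WT VSMC, ALL), 1.47 to 1.96 (KO VSMC, HG + FFA), 1.64 to 1.90 (KO VSMC, ALL), 1.09 to 1.29 (EC, HG + FFA), 0.997 to 1.20 (EC, ALL) and 1.63 to 1.97 (EC against WT VSMC Control). The last range comes from 9 runs, for 4 WT VSMC and 9 EC Control libraries, so not every EC set was left out. The dependence of this comparison on single EC sets was therefore not fully tested. Without the replicate block, which ignores the pairing of cultures by set, no member passed with HG + FFA or ALL (0 of 10). The Pdk4 estimates were then 1.61 and 1.67 in WT VSMC, 1.71 and 1.91 in KO VSMC and 1.08 and 0.98 in EC.

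The number of members past the test with HG + FFA was 0 without WT VSMC set 3, without KO VSMC set 6 or 7 and in KO VSMC with these 2 conditions alone in the fit (Pdk4 1.59). It was 3 in KO VSMC without set 5, the same fit as with complete sets only, 2 in KO VSMC by DESeq2 (Pdp1 added) and 2 in EC without set 16 (Pdk2 added). With ALL it was 2 in WT VSMC without a filter on low counts (Pdp1 added) and 0 without KO VSMC set 6 or 7. Over the sets left out the count ran from 0 to 1 in WT VSMC, 0 to 3 in KO VSMC and 1 to 2 in EC. Without a count filter, 1 member (Pdk4) passed for EC minus WT VSMC with ALL. Between KO and WT VSMC Control DESeq2 called 1 (Pdp1). For EC against WT VSMC Control, 9 runs left out 1 set each, but not every EC set in turn. The count ran from 2 (without WT VSMC set 1) to 4 in these runs. It was 5 (Pdhb added) by DESeq2 and without EC sets 9, 11 and 13. The causes were not tested.

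The Pdk4 share of the kinases in WT VSMC was 30.0% (Control) and 58.0% (ALL) per coding length, 24.6% and 51.5% with no length correction, and 19.6% and 44.3% per canonical transcript. In KO VSMC it was 34.8% and 68.0%, 28.7% and 61.5%, and 24.1% and 56.4%. In EC it was 48.0% and 65.4% with no length correction and 44.1% and 62.2% per canonical transcript. The sets 9, 11 and 13, the EC sets left out in turn and the canonical length were added after the data were seen. Of 2340 alternative estimates of single members, 178 changed sign, all of members that did not pass. The 3 to 10 sets per group limit the precision of each estimate.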
